A study of Homo sapiens with 24 samples.

Results

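The transcriptome of RBE cells was compared between 3 libraries from cells given YC-1 for 16 h and 3 libraries from cells given the solvent DMSO for 16 h. These are 6 of the 24 libraries of the series, which also holds a 6 h time point and a second line, SNU1079. RBE is a human cholangiocarcinoma line, a cancer of the bile ducts, and all 6 libraries share its IDH1 mutation and what the labels call high SULT1A1 expression. The labels give no dose of YC-1, and the replicates are called biological in the design text. The results come from 1 line.

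Times were read from the sample titles. A separate time label contradicts them, since it gives 16 h to the DMSO samples and 6 h to the YC-1 samples. If that label held, treatment and time could not be told apart, and no comparison here could separate them. A comparison with both times pooled stands among the alternatives, but it does not settle this. A gene entered the comparison with a value of 10 or more in 3 or more of the 6 libraries, which 15675 of 57820 rows met. Values are normalised counts, and every fold change below is YC-1 minus DMSO of log2(normalised count + 1). This scale makes changes of low genes look smaller than they are. A gene was called at an adjusted p under 0.05 in limma, and errors of fold changes are standard errors.

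YC-1, an indazole derivative, is known to stimulate soluble guanylate cyclase, which makes the messenger cyclic GMP, and to inhibit HIF-1, the transcription factor of oxygen sensing. The title of the series concerns alkylators that depend on sulfonation. Cytosolic sulfotransferases such as SULT1A1 move a sulfate group from the donor PAPS onto hydroxyl groups, and on some benzylic alcohols this creates a leaving group and a reactive electrophile. Cells that meet damage to proteins, DNA or transcription are known to respond through ATF4 and CHOP, through p53 and through immediate early genes.

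The 6 libraries agreed closely within groups, with Spearman correlations across genes of 0.989 to 0.995 within groups and 0.911 to 0.925 between them, and none stood apart. Summed normalised counts were 26118675 to 27008873 with YC-1 and 20891453 to 21579996 with DMSO, a ratio of means of 1.25. Of 9 biliary epithelium markers found in the table, 8 reached 10 in at least 1 library (CFTR did not). Their summed level was 124109 to 130316 with YC-1 and 77574 to 84124 with DMSO. Markers of other cell types summed to far less. Of 7 leukocyte markers 4 reached 10 in at least 1 library, with summed levels of 2211 to 2311 with YC-1 and 1331 to 1594 with DMSO, while the defining PTPRC and CD3E did not. Of 8 stroma markers 5 did, with sums of 952 to 1001 with YC-1 and 584 to 621 with DMSO, while DCN, LUM and COL3A1 did not. Of 10 hepatocyte markers 4 did, with sums of 2056 to 2113 with YC-1 and 1598 to 1607 with DMSO, while ALB, APOA1, APOB, TTR, TF and CYP3A4 did not. Of 5 endothelium markers 1 did, with sums of 5.70 to 8.69 with YC-1 and 11.02 to 27.3 with DMSO, while VWF, CDH5, KDR and CLDN5 did not. The part of these markers in the results was not tested.

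After 16 h of YC-1 most expressed genes stood at another level. The test called 11228 of the 15675 genes (71.6%), with 5750 higher (36.7%) and 5478 lower (34.9%). The 3 YC-1 libraries lay wholly above or below the 3 DMSO libraries for 74.5% of genes, above for 38.2% and below for 36.3%. At a log2 fold change of at least 1 the counts were 2191 higher (14%) and 2849 lower (18.2%), at 2 or more they were 520 (3.32%) and 802 (5.12%), and at 3 or more 214 (1.37%) and 183 (1.17%). The plot of fold change against level marks the genes most discussed below.

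**Figure D1:**
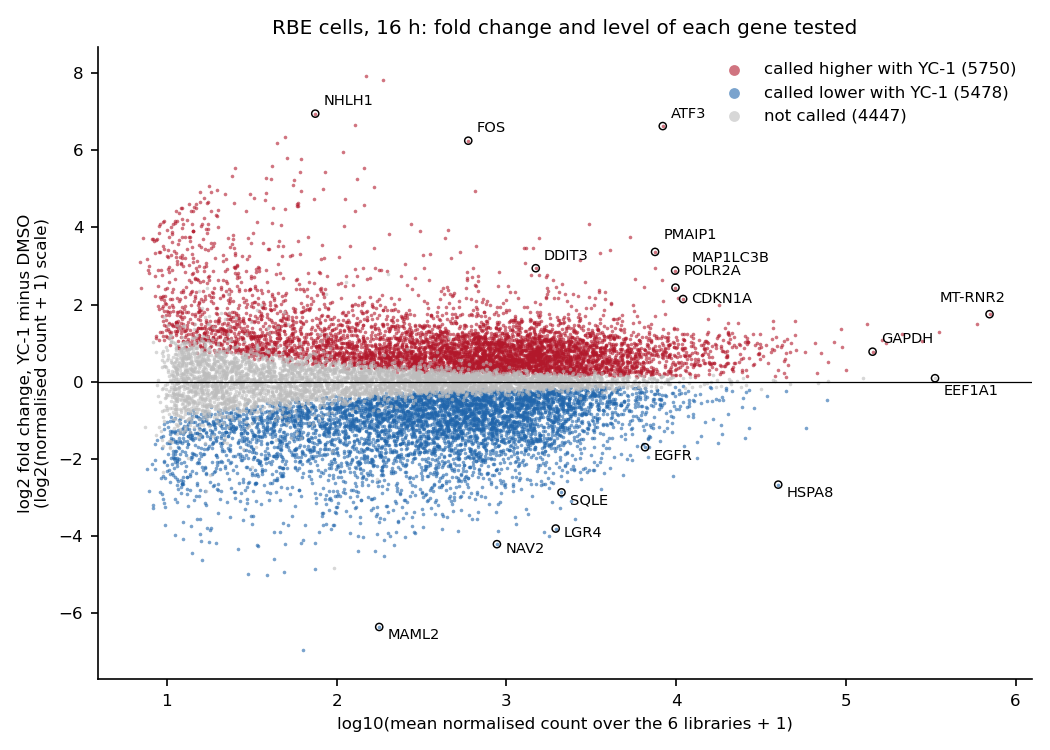
Log2 fold change of YC-1 over DMSO (y axis) against log10 of the mean normalised count over the 6 libraries plus 1 (x axis), 1 point per gene tested, red for called higher, blue for called lower and grey for not called. ATF3 (6.63) and FOS (6.25) lie near the top and MAML2 (-6.36) at the bottom, while HSPA8 (-2.67) and MT-RNR2 (1.75) are abundant transcripts that moved.

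How the calls split into higher and lower depended on the scaling, and the summed signal itself was higher with YC-1. When libraries were scaled to equal sums, 11072 genes (70.6%) were called, 3738 higher (23.8%) and 7334 lower (46.8%), and log2 fold changes moved down by 0.33 at the median over genes. With sums made equal outside the mitochondrial genome 11109 were called (70.9%), 4560 higher (29.1%) and 6549 lower (41.8%), a median shift of -0.19. Equal upper quartiles gave 5858 and 5367, and median-of-ratios factors recomputed over the libraries in the fit gave 5565 and 5642. Under all 5 scalings, 3738 genes (23.8%) were called higher and 5367 (34.2%) lower. Between the deposited scaling and equal sums, 35 genes switched from a higher to a lower call, none with a deposited fold change above 0.20. A further 1977 higher calls were lost and 1821 genes became lower calls. Counts at equal sums are therefore given beside each gene group.

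**Figure D2:**
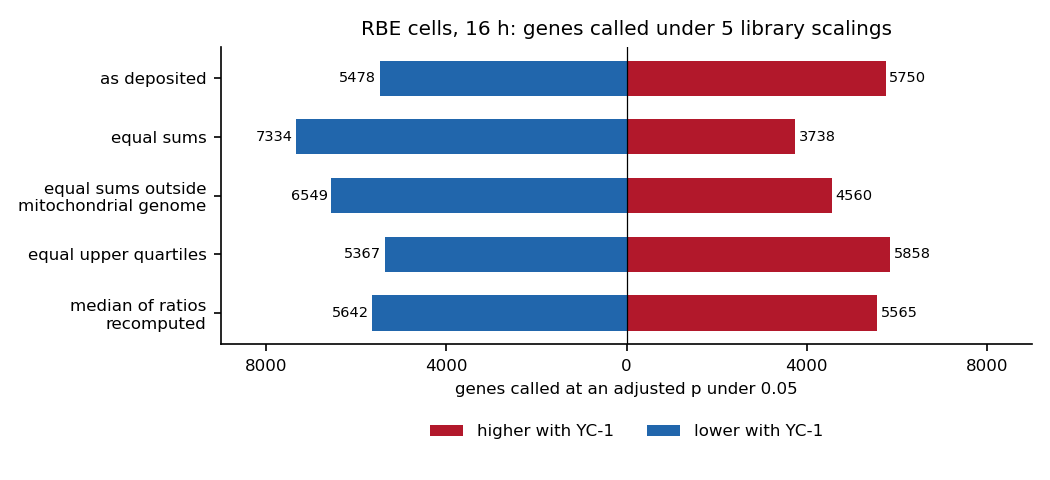
Number of genes called higher with YC-1 (red, right) and lower with YC-1 (blue, left) at an adjusted p under 0.05 under 5 scalings of the libraries. The split is 5750 against 5478 as deposited and 3738 against 7334 at equal sums.

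Transcripts of the mitochondrial genome made up much of the added signal. Their share was 16.1% ± 0.83 with YC-1, against 7.86% ± 0.27 in DMSO libraries (SD, n = 3 each), with no overlap between the groups. The difference of 8.29 percentage points has an exact permutation p of 0.1, two-sided, the smallest that 3 against 3 libraries allow. Of the 5403315 by which the mean sum was higher with YC-1, 48.8% came from the mitochondrial genome and 19.7% from genes of cytosolic ribosomal proteins. For the ribosomal protein genes the share was 8.53% with YC-1, against 5.69% with DMSO. The values are relative to the other RNA of a library, and whether total RNA per cell changed was not tested.

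Genes with low values in DMSO, some of them near 0, were prominent among the largest increases. The naming rule favours such genes, since its minimum of 100 applied to the higher group only. It also required groups that do not overlap, so lack of overlap adds nothing for the highest and lowest genes named. ATF3, a stress-induced transcription factor (ENSG00000162772, chromosome 1, 212565334 to 212620777, GRCh38), stood at 17329, 16738 and 15449 in the YC-1 libraries, against 251, 114 and 159 in the DMSO libraries. All 3 YC-1 values exceeded the DMSO values by a wide margin, and the fold change of 6.63 ± 0.19 had a limma adjusted p of 4.13e-12. NHLH1, a neuronal helix-loop-helix transcription factor, had 152, 138 and 153 with YC-1, against 0, 0.728 and 0 with DMSO. It was close to 0 in all DMSO libraries, so its fold change of 6.95 hangs on the pseudocount and was 3.94 with a pseudocount of 10. Others among the 15 highest with a symbol and at least 100 counts were C1orf162 (5.95), FAM90A1 (5.77), DDN, which encodes dendrin (5.53), and GUCA1B, a guanylate cyclase activator of photoreceptors (5.26). SELPLG, the ligand of P-selectin, rose by 5.06, RND1, a small GTPase, by 4.95, the cochaperone DNAJA4 by 4.94, CCDC168 by 4.75 and SDCBP2, syntenin 2, by 4.63. The highest value, 7.82, belonged to RPL36A-HNRNPH2, an annotated read-through of 2 neighbouring genes on chromosome X. Its means were 373 ± 10.96 with YC-1 and 1.17 ± 2.02 with DMSO (mean ± SD, n = 3 each), and it is uncertain because it shares sequence with both. Without replicate 1 of DMSO it was at 8.55, and DNAJA4 was at 5.60 without replicate 3 of DMSO. In all, 119 of the 15675 genes tested were under 3 in each DMSO library and at least 10 in each YC-1 library, 66 of them protein-coding. The reverse held for 27 genes, 17 of them protein-coding. Such genes entered the comparison through 1 group only. Both counts are as deposited and are not given at equal sums.

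Most of the largest decreases were in genes that span long stretches of the genome. MAML2, a coactivator of Notch (ENSG00000184384, chromosome 11, 95976598 to 96343180, GRCh38), had 9.43, 6.42 and 0 with YC-1, against 359, 328 and 359.6 with DMSO. Every YC-1 library was far under every DMSO library, with a fold change of -6.36 ± 0.66 (limma adjusted p = 7.93e-07) and of -4.61 with a pseudocount of 10. NAV2, a neuron navigator gene (chromosome 11, 19350724 to 20121598), had 76.4, 105 and 87.7 with YC-1, against 1746, 1588 and 1667 with DMSO. NAV2 was well expressed in DMSO cells, and its log2 fold change was -4.21. The Eph receptor gene EPHB1 (-4.85), the zinc finger gene ZNF407 (-4.52), the coactivator PPARGC1B (-4.38), the Rap exchange factor RAPGEF5 (-4.22) and IL1RAPL1 (-4.19) fell as well. So did the procollagen protease ADAMTS3 (-4.17), its relative ADAMTS15 (-4.01), the Polycomb partner JARID2 (-4.11), the Hedgehog factor GLI2 (-4.0), the coactivator ZMIZ1 (-4.003) and TGFBR3, betaglycan (-4.03). ZMIZ1 was the best expressed of these, at 208 ± 29.7 with YC-1 and 3338 ± 219 with DMSO (mean ± SD, n = 3 each). The pseudogene ZBTB45P1 (-4.10) and the read-through PALM2-AKAP2 (-4.03) complete the 15 lowest. ADAMTS15 and ZBTB45P1 are the short genes among them, and the others span over 100 kb each. ZBTB45P1 and PALM2-AKAP2 are uncertain because they share sequence with other genes, and because replicate 3 of YC-1 was at 0 for both. PALM2-AKAP2 had 119.7, 137 and 0 with YC-1, against 399, 351 and 514 with DMSO, and its fold change was -1.69 without that library. ZBTB45P1 had 12.9, 20.6 and 0 with YC-1, against 119, 118 and 104 with DMSO, and its fold change was -2.73 without it. MAML2 was at -5.31 without replicate 3 of YC-1, and EPHB1 at -3.73 without replicate 2 and at -6.22 without replicate 3 of YC-1.

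Responses differed by genomic span, the distance from first to last base of a gene with introns included. It was known for 15212 of the genes tested (97.0%), from GENCODE 29. Of 3918 genes under 10 kb, 52.7% were higher and 19% lower with YC-1, with a median fold change of 0.52. Of 501 genes over 300 kb, 2.99% were higher and 80.8% lower, with a median of -1.35. The classes between them fell in order, with medians of 0.35 at 10 to 30 kb, -0.10 at 30 to 100 kb and -0.92 at 100 to 300 kb. At equal sums the ends of the scale were 38.7% and 26.3% under 10 kb, and 0.998% and 87.2% over 300 kb. Across these genes span and fold change had a Spearman correlation of -0.45. Genes are not independent replicates. Among genes of 11 to 20 exons it was -0.57, whereas exon number within the class of 30 to 100 kb gave -0.08. Of the 100 genes with the lowest fold changes, 79 spanned over 100 kb. None of the 100 with the highest did, and their median span was 12.1 kb against 221 kb for the 100 lowest. Among the 25% of genes with the lowest mean level, 60.2% of those over 300 kb were lower and 19.2% of those under 10 kb. Among the 25% with the highest level these shares were 87.1% and 10.4%.

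**Figure D3:**
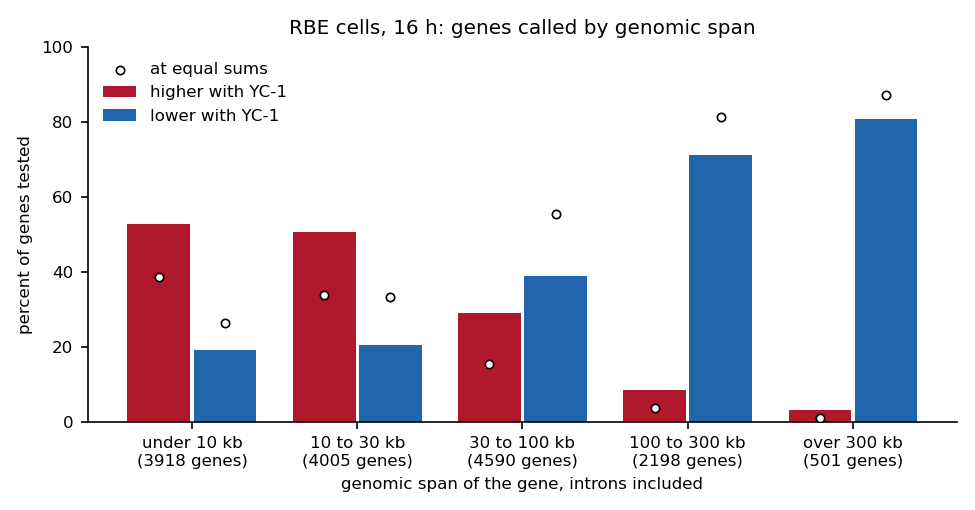
Percent of genes tested that were called higher (red) and lower (blue) with YC-1 (y axis), by genomic span with introns included (x axis). Open circles give the same percentages at equal sums. The share called lower is 19% under 10 kb and 80.8% over 300 kb.

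Gene groups were then described by lists, which were compiled with earlier results of these data known. Each count below is to be read beside the 36.7% higher and 34.9% lower, and each median beside the 0.03, of all genes tested. At equal sums these background values are 23.8%, 46.8% and -0.29. Lack of overlap, where mentioned, is to be read beside the 74.5% of all genes tested. The plot of list medians gives all lists with at least 12 tested members.

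**Figure D4:**
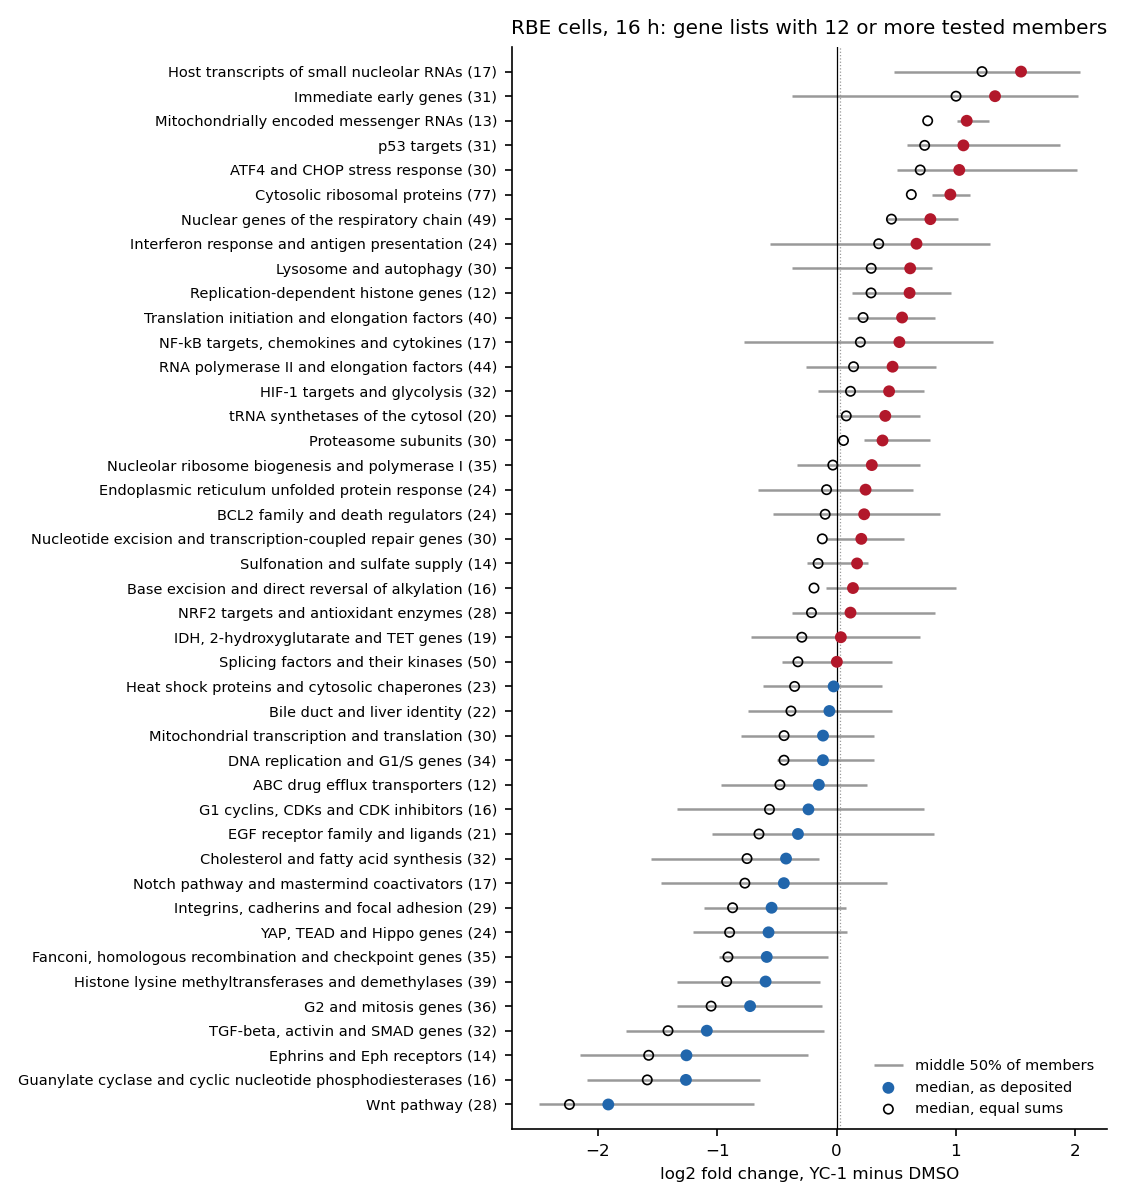
Median log2 fold change of YC-1 over DMSO (x axis) for the gene lists with 12 or more tested members (y axis, number tested in brackets). Filled circles are medians as deposited, red above 0 and blue under 0, grey lines span the middle 50% of members, open circles are medians at equal sums, and the dotted line is the median of all genes. Host transcripts of small nucleolar RNAs are at the top (1.55) and Wnt genes at the bottom (-1.91).

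Most targets of ATF4 and CHOP rose. ATF4 is the transcription factor translated when eIF2 is phosphorylated, and it drives amino acid supply genes, DDIT3 (which encodes CHOP) and ATF3. Of 32 listed genes 30 were tested, 24 rose and 2 fell, with a median of 1.03. DDIT3 had 2499, 2820.3 and 2584 with YC-1, against 374, 345 and 309 with DMSO. The groups were far apart, with a rise of 2.94 ± 0.087. PPP1R15A, a phosphatase subunit that reverses eIF2 phosphorylation, rose by 3.33 and the stress cytokine GDF15 by 3.71. ATF4 itself fell by 0.49, to 4080.4 ± 168 with YC-1 against 5719 ± 122 with DMSO (mean ± SD, n = 3 each), and the lipoprotein receptor VLDLR fell by 1.83. At equal sums the list gave 22 higher and 5 lower. Among the 20 tRNA synthetases of the cytosol, enzymes that ATF4 is known to raise in part, 14 rose and 1 fell, with WARS (1.40) up and RARS (-0.20) down. At equal sums this split was 8 and 7.

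The upstream sequence of these genes was searched on both strands for TGATGNAA, letters shared by sites that ATF4 binds with C/EBP partners. Of 32 listed genes 26 had an entry in the RefSeq promoter table, and 4 of them (15.4%) held the letters in the 250 bases before the gene start, against 3.19% of 27305 promoters. Of these 4, 3 genes were tested and all 3 rose. They are shown because they carry both the letters and the response, with the match in capitals, 5′ to 3′ on the strand of the gene (GRCh38.p14). CHAC1, a glutathione-degrading enzyme, and ASNS, asparagine synthetase, were picked for this match after their values were seen. The ATF3 window is chr1:212565157-212565406 on the plus strand, the CHAC1 window chr15:40953221-40953470 on the plus strand and the ASNS window chr7:97872409-97872658 on the minus strand. In CHAC1 the letters run on the other strand. A match is a description of letters and no measure of binding.
ATF3: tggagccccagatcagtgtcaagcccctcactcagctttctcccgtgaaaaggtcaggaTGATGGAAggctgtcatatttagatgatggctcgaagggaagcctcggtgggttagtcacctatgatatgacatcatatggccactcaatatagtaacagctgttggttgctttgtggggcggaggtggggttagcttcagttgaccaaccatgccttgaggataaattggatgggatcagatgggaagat
CHAC1: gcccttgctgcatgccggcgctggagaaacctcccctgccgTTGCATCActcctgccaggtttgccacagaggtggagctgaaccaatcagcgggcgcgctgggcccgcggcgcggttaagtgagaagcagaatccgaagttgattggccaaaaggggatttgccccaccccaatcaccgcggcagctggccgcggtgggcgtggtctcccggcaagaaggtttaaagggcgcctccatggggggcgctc
ASNS: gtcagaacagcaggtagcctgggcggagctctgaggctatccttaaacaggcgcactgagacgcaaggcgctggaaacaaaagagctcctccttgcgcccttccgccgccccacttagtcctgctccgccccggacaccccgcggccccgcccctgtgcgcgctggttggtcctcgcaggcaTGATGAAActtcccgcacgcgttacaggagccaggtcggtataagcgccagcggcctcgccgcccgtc
CHAC1 rose by 1.29 ± 0.16, to 509 ± 57.4 with YC-1 against 208 ± 25.3 with DMSO. ASNS rose by 1.71 ± 0.054, to 11548 ± 42.5 with YC-1 against 3526 ± 117 with DMSO (mean ± SD, n = 3 each). The matches lie 191 to 184, 209 to 202 and 68 to 61 bases before the starts of ATF3, CHAC1 and ASNS. The 22 tested members with a promoter entry and without the letters gave 16 higher and 2 lower.

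Most immediate early genes, which cells switch on within minutes of a stimulus, were higher at 16 h. Of 34 listed genes 31 were tested, 21 rose and 9 fell (median 1.33), with 18 higher and 9 lower at equal sums. The AP-1 gene FOS (chromosome 14, 75278774 to 75282230) had 1152, 1044 and 1329 with YC-1, against 9.48, 19.9 and 15.7 with DMSO. FOSB, another AP-1 gene, rose by 4.74, and NR4A3, an orphan nuclear receptor, by 5.43 ± 0.29, from a DMSO level that was near 0. In the other direction MYC, the growth-promoting transcription factor, had 1325, 1452 and 1434 with YC-1, against 3251, 3402 and 3664 with DMSO, a log2 fold change of -1.29 without overlap. KLF2 (-1.89) and the matrix protein gene CYR61 (-1.26) also fell.

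TGACGNNA, letters of the cyclic AMP response element to which CREB and ATF proteins bind, stood upstream of 12 of the 23 early genes with a promoter entry (52.2%), against 6.78% of all promoters. Of the 11 tested genes that held it, 10 were called higher and 1 lower, and of 10 without it, 7 and 2. NR4A3 is shown as the gene with the largest rise among those that hold it (chr9:99821635-99821884, plus strand, GRCh38.p14), and its match is on the other strand.
NR4A3: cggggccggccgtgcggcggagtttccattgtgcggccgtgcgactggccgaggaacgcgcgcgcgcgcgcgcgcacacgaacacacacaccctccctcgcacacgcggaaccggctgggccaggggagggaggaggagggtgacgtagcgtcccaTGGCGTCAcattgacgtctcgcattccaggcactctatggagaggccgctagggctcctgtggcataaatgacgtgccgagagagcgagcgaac
Its values were 161, 155 and 183 with YC-1, against 4.06, 2.73 and 2.09 with DMSO, and the letters lie 94 to 87 bases before the start.

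Most p53 targets rose, and MDM2 did not pass. Of 32 listed genes 31 were tested, 26 rose and 2 fell (median 1.06), with 24 higher and 3 lower at equal sums. CDKN1A, the CDK inhibitor p21, had 17438, 17781 and 18568 with YC-1, against 3913, 4274 and 3994 with DMSO, a rise of 2.14 ± 0.070. GADD45A, a growth arrest gene, had 5833, 6035 and 5584 with YC-1, against 347, 340.2 and 336 with DMSO. PMAIP1, which encodes the death protein NOXA, had 13673, 14601 and 12817 with YC-1, against 1398, 1281 and 1304 with DMSO. In all 3 genes the YC-1 libraries lay several-fold above the DMSO libraries. MDM2, the p53 ligase and a standard target, stood at 3710.5 ± 357 with YC-1 and 4152 ± 283 with DMSO (mean ± SD, n = 3 each) and did not pass (limma adjusted p = 0.0941). At equal sums it was lower (-0.49). The 2 targets that fell were PLK2 (-0.47) and CCNG1 (-0.35).

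Survival and death regulators of the BCL2 family were mixed, with 12 of 24 higher and 8 lower, and 9 and 9 at equal sums. The death genes BIK (1.99) and PMAIP1 (3.36) rose, while BMF (-1.76) fell. MCL1, which encodes a short-lived survival protein, had 3927, 4126 and 3382 with YC-1, against 10112, 9637 and 10417 with DMSO, a log2 fold change of -1.40 with no overlap.

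Lists of NF-kB, interferon and EGF receptor genes each moved both ways. Of 17 tested NF-kB targets and cytokines, 9 were higher and 6 lower, and at equal sums 7 and 7. IL11, a cytokine of the IL-6 family, had 845, 819 and 871 with YC-1, against 58.5, 52.7 and 51.9 with DMSO, a rise of 3.94. The chemokine CXCL8 rose by 2.14, while the NF-kB subunit REL (-1.99) and the inhibitor NFKBIA (-0.98) fell. Of 24 interferon and antigen presentation genes 12 rose and 8 fell, with 12 higher and 9 lower at equal sums. IRF7 (3.25) and ISG15 (2.09) went up and the interferon-induced IFIT1 (-2.88, and -3.48 without replicate 2 of YC-1) went down. In the EGF receptor list 7 of 21 rose and 11 fell, with 5 higher and 12 lower at equal sums. The ligand HBEGF had 11064, 10950.5 and 10886 with YC-1, against 2144, 1855 and 2054 with DMSO, and the receptor EGFR had 2983, 3308 and 2983 with YC-1, against 10315, 9633 and 10138 with DMSO. The ligand rose by 2.44 and the receptor fell by 1.70, each without overlap.

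Genes of protein synthesis rose almost as a block where they encode ribosomal proteins. Of 77 tested genes 76 rose and only RPL7A fell, with a median of 0.95, and at equal sums 74 rose and 1 fell. Their median span was 5.38 kb, and against the median of each gene's span class their median was 0.47. Among all genes under 10 kb in the highest 25% of mean level, 82.7% were higher, with a median of 0.80. The part of span and level in the ribosomal protein result was not tested. RPLP1, of the ribosomal stalk, had 26885, 25619.6 and 36408 with YC-1, against 9082, 13922 and 8551 with DMSO. Replicate 3 of YC-1 and replicate 2 of DMSO were above the other libraries of their groups, and the groups did not overlap. RPL7A had 40759 ± 116 with YC-1 and 48544 ± 1611 with DMSO (mean ± SD, n = 3 each). Many ribosomal protein genes have processed pseudogenes with similar sequence, so their counts are uncertain where reads were shared. Of 40 initiation and elongation factors 28 rose and 5 fell, with 22 higher and 12 lower at equal sums. The start codon factor EIF1 rose by 1.98, and those that fell were EIF2S3 (-0.44), EIF4B (-0.56), EIF5B (-0.44), EIF4E (-1.55), which binds the cap, and the scaffold EIF4G3 (-2.26). EEF1A1, the most abundant factor, stood at 345345 ± 20096 with YC-1 and 324736 ± 26190.1 with DMSO (mean ± SD, n = 3 each) and did not pass. Without replicate 3 of DMSO it was called higher, by 0.15, and at equal sums it was at -0.24.

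Host transcripts of small nucleolar RNAs, noncoding or short-lived RNAs that carry the guides of ribosomal RNA modification in their introns, had the highest median of all lists described, 1.55. Of 18 listed 17 were tested, 13 rose and only SNHG10 fell (-0.66), with 12 higher and 2 lower at equal sums. SNHG15 had 2281, 2429 and 2248 with YC-1, against 246, 199 and 187 with DMSO, and ZFAS1 rose by 2.31. Both stood far above their DMSO levels in every YC-1 library. Nucleolar genes that build ribosomes were mixed, with 19 of 35 higher and 10 lower, or 13 and 16 at equal sums. RRN3, an initiation factor of RNA polymerase I, rose by 1.53 and UTP20, a factor of the small subunit, fell by 2.22.

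All 13 mRNAs of the mitochondrial genome rose, with a median of 1.09 and of 0.76 at equal sums. MT-CO1, a subunit of cytochrome c oxidase, had 918672, 879354 and 831440 with YC-1, against 326402, 309609 and 303787 with DMSO. The ribosomal RNA MT-RNR2 rose by 1.75 and MT-ND4 by 1.28. In the fit of all 24 libraries, whose spread includes SNU1079, MT-ND4 did not pass. It was not alone in its wide spread there. Standard errors of the difference of effects between lines were 1.10 for MT-ND4, 0.86 for MT-CO2 and 1.02 for MT-ND2. They were 1.21 for MT-ATP6 and 0.66 for MT-CO1. Calls of the other mRNAs in that fit are not given here. Nuclear genes of the respiratory chain moved the same way, with 42 of 49 higher and 2 lower, and 32 and 7 at equal sums. Their median fold change was 0.79 and their median span 12.5 kb. Against the median of each gene's span class their median was 0.44. The 2 lower calls, SDHA (-0.22) and SDHC (-0.18) of succinate dehydrogenase, were both lost without replicate 2 or replicate 3 of DMSO. UQCRQ, of complex III, rose by 1.46. Known regulators of these genes were mixed. PPARGC1B, a coactivator of mitochondrial biogenesis (chromosome 5, 149730298 to 149855022), had 9.01, 12.95 and 12.2 with YC-1, against 257, 260.2 and 248 with DMSO. Its relative PPARGC1A (-2.97, and -3.59 without replicate 2 of YC-1) and the transcription factor NRF1 (-2.06) fell, and TFAM, which packs mitochondrial DNA, rose by 1.15. In the list of mitochondrial transcription and translation, 11 of 30 rose and 14 fell, with 5 higher and 19 lower at equal sums.

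Most cell division genes fell. Of 36 G2 and mitosis genes 27 fell and 3 rose (median -0.72), and at equal sums 33 fell and 1 rose. KIF11, the kinesin that separates spindle poles, had 882, 954 and 763 with YC-1, against 4304, 3934 and 4198 with DMSO, a log2 fold change of -2.26 ± 0.085. The checkpoint kinase TTK fell by 2.55, and the spindle kinase AURKA fell by 2.02. Besides PRC1, the higher genes were AURKB, a kinase of the chromosomal passenger complex (0.26), and PTTG1, securin (0.57). At equal sums AURKB was at -0.068. In bulk RNA, fewer cells in mitosis and less RNA per cell cannot be told apart. G1 genes split, with 7 of 16 higher and 8 lower, or 6 and 9 at equal sums. CDK6 had 795, 928 and 725 with YC-1, against 4788, 4718 and 4610.4 with DMSO, while E2F1 rose by 0.80 together with CDKN1A. DNA replication genes gave 12 higher and 15 lower of 34 as deposited, and at equal sums lower calls prevailed (6 higher, 19 lower), with the helicase subunit MCM3 down (-1.20).

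Promoters of mitotic genes are known for pairs of CCAAT boxes, bound by NF-Y, and for TTTGAA, the CHR element bound by the DREAM and MuvB complexes. CCAAT stood on either strand in 24 of 32 listed mitotic genes with a promoter entry (75%), against 33% of all promoters, and TTTGAA in 17 (53.1%), against 13.6%. Of the 24 with CCAAT, 18 fell and 3 rose, and of the 8 without it, 7 fell and 0 rose. Of the 17 with TTTGAA, 14 fell and 1 rose, and of the 15 without it, 11 fell and 2 rose. The gene with TTTGAA that rose is PRC1, a protein of the spindle midzone, and it is shown beside KIF11 because both hold both sets of letters at nearly the same distance from the start and moved in opposite directions. CCAAT lies 53 to 49 bases before the start in both genes, and TTTGAA 28 to 23 bases before it in KIF11 and 20 to 15 in PRC1. The windows are chr10:92592880-92593129 on the plus strand and chr15:90994536-90994785 on the minus strand (GRCh38.p14), with both sets of letters in capitals and, in KIF11, on the other strand.
KIF11: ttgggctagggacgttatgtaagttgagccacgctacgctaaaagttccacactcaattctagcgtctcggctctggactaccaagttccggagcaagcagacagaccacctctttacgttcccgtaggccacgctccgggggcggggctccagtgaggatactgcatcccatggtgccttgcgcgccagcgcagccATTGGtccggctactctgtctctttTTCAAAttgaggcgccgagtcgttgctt
PRC1: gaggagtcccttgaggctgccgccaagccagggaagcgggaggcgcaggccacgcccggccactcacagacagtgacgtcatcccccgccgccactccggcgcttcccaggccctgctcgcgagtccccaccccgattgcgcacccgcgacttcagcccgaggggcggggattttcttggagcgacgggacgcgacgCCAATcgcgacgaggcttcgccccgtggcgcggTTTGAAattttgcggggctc
PRC1 had 8136, 8433 and 8011 with YC-1, against 6345, 5963 and 6981 with DMSO, a rise of 0.35. At equal sums it was at 0.026 and did not pass.

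In DNA repair, lower calls prevailed for crosslink repair and recombination under both scalings. In the excision pathways higher calls prevailed as deposited and lower calls at equal sums. All genes tested turned the same way, from 36.7% higher and 34.9% lower to 23.8% and 46.8%. Medians at equal sums were -0.12 for nucleotide excision and -0.19 for base excision, against -0.29 for all genes. Of 35 genes for interstrand crosslink repair, homologous recombination and checkpoints 19 fell and 4 rose (median -0.58), with 27 lower and 2 higher at equal sums. BARD1, the partner of BRCA1, had 214, 231 and 193 with YC-1, against 901, 763 and 837 with DMSO, and the helicase BRIP1 fell by 1.87. The higher genes were the recombination factors XRCC3 (1.11) and RAD51C (0.83), the motor protein RAD54L (0.29) and the nuclease subunit MUS81 (0.35), of which RAD54L was at -0.031 at equal sums. Of 30 genes for nucleotide excision and transcription-coupled repair, 16 rose and 6 fell, which at equal sums was 7 and 11. XAB2, which joins stalled transcription to repair, rose by 1.54 and the damage sensor XPC by 1.42, whereas CDK7, a kinase of TFIIH, fell by 0.98. Among 16 base excision and direct reversal genes, 7 rose and 3 fell, which at equal sums was 5 and 7. Without replicate 3 of DMSO 1 fell. The glycosylase MPG, which removes alkylated purines, rose by 1.03. FTO, an RNA and DNA demethylase (-2.64), the ligase LIG3 (-0.64) and the endonuclease APEX1 (-0.16) fell.

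Within the transcription machinery the largest change was in POLR2A, the catalytic subunit of RNA polymerase II. It had 16636, 16675 and 16884 with YC-1, against 3009, 3207 and 3044 with DMSO, a rise of 2.44 ± 0.10. The YC-1 libraries were tightly grouped and about 5 times as high. Of 44 polymerase II and elongation genes 27 rose and 11 fell, and at equal sums 20 and 15. The elongation kinases CDK12 (-1.52) and CDK13 (-1.59) fell. As deposited, calls among splicing genes were near balance, with 20 of 50 higher and 17 lower. At equal sums 8 were higher and 27 lower (54%), against 46.8% lower of all genes. The splicing kinase CLK1 rose by 2.16, and HNRNPA1 fell by 1.60. HNRNPA1 has many processed pseudogenes, so its value is uncertain. Of 39 histone lysine methyltransferases and demethylases 27 fell and 7 rose, or 32 and 1 at equal sums. KDM6A (-3.06) and KDM6B (2.42), demethylases of the same histone mark, moved in opposite directions. KDM6A spans 239426 bases and KDM6B 14893.

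In signalling pathways that shape epithelia lower calls outnumbered higher ones, and the Wnt list had the lowest median. Of 28 tested Wnt genes 23 fell and 5 rose (median -1.91), and at equal sums 23 fell and 3 rose (median -2.24). The higher calls were 3 without replicate 3 of DMSO or without replicate 1 of YC-1. LGR4, a receptor for R-spondins (chromosome 11, 27365961 to 27472775), had 253, 305 and 225 with YC-1, against 3784, 3429 and 3710 with DMSO. TCF7L2, a nuclear effector of Wnt signals, fell by 3.44, and DKK1, a secreted Wnt antagonist, fell by 3.32. The higher genes were TCF7 (1.91), TCF7L1 (1.08), DKK3 (0.33), PORCN, which lipidates Wnt ligands (0.93), and LGR5, a relative of LGR4 that marks stem cells of the gut (4.32). LGR5 had 46.03, 39.3 and 22.2 with YC-1, against 0.811, 2.03 and 0 with DMSO, so that LGR4 and LGR5 moved in opposite directions. LGR5 was near 0 in DMSO, and with a pseudocount of 10 its fold change was 2.03. Of 32 TGF-beta, activin and SMAD genes 21 fell and 5 rose (median -1.09), with 25 lower and 3 higher at equal sums. The BMP receptor BMPR1A (-3.88) and the inhibitory SMAD6 (-3.65) fell, and among those that rose were the ligand TGFB1 (0.35), the activin subunit INHBE (1.59), SMAD5 (0.45) and the repressor SKIL (0.80).

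Notch genes gave 9 lower and 5 higher of 17, or 11 and 4 at equal sums, with the coactivator MAML3 down (-5.0) beside MAML2. The higher genes were the ligands DLL4 (3.18) and JAG1 (0.42) and the target genes HES1 (1.16), HES4 (2.02) and HEY1 (1.86). The coactivator MAML1 (0.10) and the target NRARP (-0.083) did not pass, and at equal sums both were lower (-0.22 for MAML1 and -0.41 for NRARP). YAP, TEAD and Hippo genes gave 15 lower and 5 higher of 24, or 18 and 2 at equal sums, with TEAD1 down (-1.87). The higher genes were the kinase LATS2 (1.06), MOB1A (0.38), AMOTL2 (1.01), AJUBA (0.28) and F3, tissue factor (0.49), of which AJUBA was at -0.048 at equal sums. Among ephrins and their receptors 9 of 14 fell and 2 rose, with 9 lower and 2 higher at equal sums. The ligand EFNA5 fell by 3.14, and the ligand EFNB1 (1.91) and the receptor EPHA2 (1.22) rose. Integrin, cadherin and focal adhesion genes gave 16 lower and 2 higher of 29, or 24 and 2 at equal sums, with the focal adhesion kinase PTK2 down (-2.34) and zyxin, ZYX (1.21), and the laminin gene LAMB3 (1.24) up. Several of these lists hold long genes. The median span was 65.3 kb for the Wnt, 54.1 kb for the TGF-beta, 70.7 kb for the Hippo and 85.1 kb for the adhesion list. Set against the median of each gene's own span class, the list medians were -1.22, -0.91, -0.17 and 0.19 in that order. The same step took the Notch list (median span 44.4 kb) from a median of -0.44 to 0.19. It took the ephrin list (22.8 kb) from -1.26 to -1.30. The part of gene span in these results was not tested further.

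Soluble guanylate cyclase is a known target of YC-1, and most tested genes of cyclases and phosphodiesterases were lower at the transcript level. The list joins enzymes that make cyclic nucleotides with enzymes that break them down. Its median therefore gives no direction for the pathway. Of 21 listed guanylate cyclase and phosphodiesterase genes 16 were tested, 12 fell and 1 rose (median -1.26), with 14 lower and 1 higher at equal sums. Their median span was 126 kb, and against the median of each gene's span class their median was -0.54. PDE5A, the phosphodiesterase that breaks down cyclic GMP, had 78.9, 45.6 and 116 with YC-1, against 534, 580.3 and 556 with DMSO. The subunits of soluble guanylate cyclase stood at 7.11 ± 1.47 with YC-1 and 33.4 ± 8.41 with DMSO for GUCY1A3, and at 95.5 ± 14.00 with YC-1 and 148 ± 13.9 with DMSO for GUCY1B3 (SD, n = 3 each). Both fell, with log2 fold changes of -2.07 and -0.63. VASP, a substrate of the cyclic GMP-dependent kinase, was the 1 gene called higher (1.09).

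HIF1A, the other named target, had 7585, 7787 and 7459 with YC-1, against 9742, 8846 and 10255 with DMSO, a log2 fold change of -0.33 ± 0.079 (limma adjusted p = 0.00162). HIF-1 targets and glycolytic genes were mixed, with 19 of 32 higher and 7 lower, or 16 and 12 at equal sums. The peptide hormone gene ADM rose by 3.21, while lactate dehydrogenase LDHA (-1.21) and the glycolytic regulator PFKFB3 (-1.89) fell.

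SULT1A1, the sulfotransferase named in the labels (ENSG00000196502, chromosome 16, 28605196 to 28623625, GRCh38), stayed well expressed. It had 1792, 1668 and 1916 with YC-1, against 1433, 1655 and 1564 with DMSO. The groups were close, and the fold change of 0.21 ± 0.079 passed only narrowly (limma adjusted p = 0.0294). It did not pass without replicate 1 or 3 of either group, and at equal sums it was -0.12. SULT1A2 rose by 0.66, a call lost at equal sums (0.34), and SULT1A3 stood at 115 ± 19.7 with YC-1 and 93.6 ± 8.12 with DMSO (mean ± SD, n = 3 each) and did not pass. These paralogues are nearly identical in places, and reads may have been split between them. SLC26A2, a sulfate importer, had 860.3, 786 and 624 with YC-1, against 2094, 1960.3 and 1971 with DMSO, a log2 fold change of -1.42. Of 14 tested sulfonation genes 5 rose and 4 fell. The count of rises was 3 without replicate 1 or 3 of DMSO or replicate 1 of YC-1, that of falls 2 without replicate 3 of DMSO, and at equal sums the split was 1 and 6.

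Most genes of cholesterol and fatty acid synthesis fell. Of 32 tested genes 19 fell and 5 rose (3 without replicate 1 of DMSO), and at equal sums 27 fell and 0 rose. The rises were PMVK (0.56), FDPS (0.30) and TM7SF2 (0.55) of sterol synthesis and the desaturases FADS1 (0.16) and FADS2 (0.57), of which FDPS was at -0.022 and FADS1 at -0.16 at equal sums. SQLE, squalene epoxidase, had 493, 548 and 484 with YC-1, against 3796, 3630.4 and 3715 with DMSO. INSIG1, which restrains the sterol sensor, fell by 2.60. Neither gene overlapped between the groups. Among IDH, 2-hydroxyglutarate and TET genes 7 of 19 rose and 8 fell, with 6 higher and 11 lower at equal sums. IDH1, mutant in this line, stood at 4520.4 ± 239 with YC-1 and 4405 ± 139.9 with DMSO (mean ± SD, n = 3 each) and did not pass, and at equal sums it was lower (-0.29). The serine synthesis enzyme PHGDH rose by 1.51, and TET1, which oxidises methylated cytosine, fell by 3.48 to a mean of 4.80 with YC-1, against 57.4 with DMSO.

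As deposited, chaperone and redox genes gave no common direction. Of 23 heat shock genes 9 rose and 9 fell. At equal sums lower calls prevailed among them, with 3 higher and 15 lower (65.2%), against 46.8% lower of all genes. HSPA8, the constitutive HSP70, had 10857, 11445 and 10219.6 with YC-1, against 67532, 63733 and 75873 with DMSO. With a log2 fold change of -2.67 ± 0.064 it fell furthest in the list. The HSP40 gene DNAJB1 fell by 1.004 and the regulator HSF1 rose by 0.86. Genes of the unfolded protein response gave 13 higher and 8 lower of 24, with the sensor ERN1 up (1.23) and the sensor EIF2AK3 down (-1.15). At equal sums they gave 8 and 11. NRF2 targets gave 13 higher and 10 lower of 28, or 10 and 14 at equal sums. Ferritin heavy chain FTH1 (1.24) and OSGIN1 (1.91) rose, and GCLC, the first enzyme of glutathione synthesis, fell by 1.39. Of 8 aryl hydrocarbon receptor genes 4 rose and 4 fell (3 and 4 at equal sums), with the target CYP1A1 at 1.47 and the receptor AHR at -0.77.

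Proteasome subunits gave 24 higher and 5 lower of 30, or 14 and 7 at equal sums, with PSMD8 at 1.21 and PSMC6 at -0.69. Lysosome and autophagy genes gave 20 higher and 9 lower of 30, or 15 and 9 at equal sums. MAP1LC3B, which coats autophagosomes, had 17756, 18076 and 16252 with YC-1, against 2537, 2401 and 2143 with DMSO, a rise of 2.88, while the autophagy regulator UVRAG fell by 2.89. Drug efflux transporters gave 5 lower and 1 higher of 12, or 8 and 0 at equal sums. Those that fell were ABCC1 (-1.61), ABCC2 (-0.85), ABCC4 (-1.32), ABCC5 (-0.47) and the cholesterol exporter ABCA1 (-1.98), and ABCC10 rose (0.64).

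Genes of bile duct identity moved both ways. Of 22 tested identity genes 8 rose and 10 fell, with 5 higher and 11 lower at equal sums. The keratin KRT7 rose by 0.95, to 44353 ± 3275 with YC-1 against 22877 ± 1518 with DMSO, while KRT19 (-0.51) and the transcription factor SOX9 (-0.52) fell (SD, n = 3 each). The factors FOXA1 (-1.71) and SOX4 (-1.70) fell further. All of these stayed above 100 counts in the mean of both groups.

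**Figure D5:**
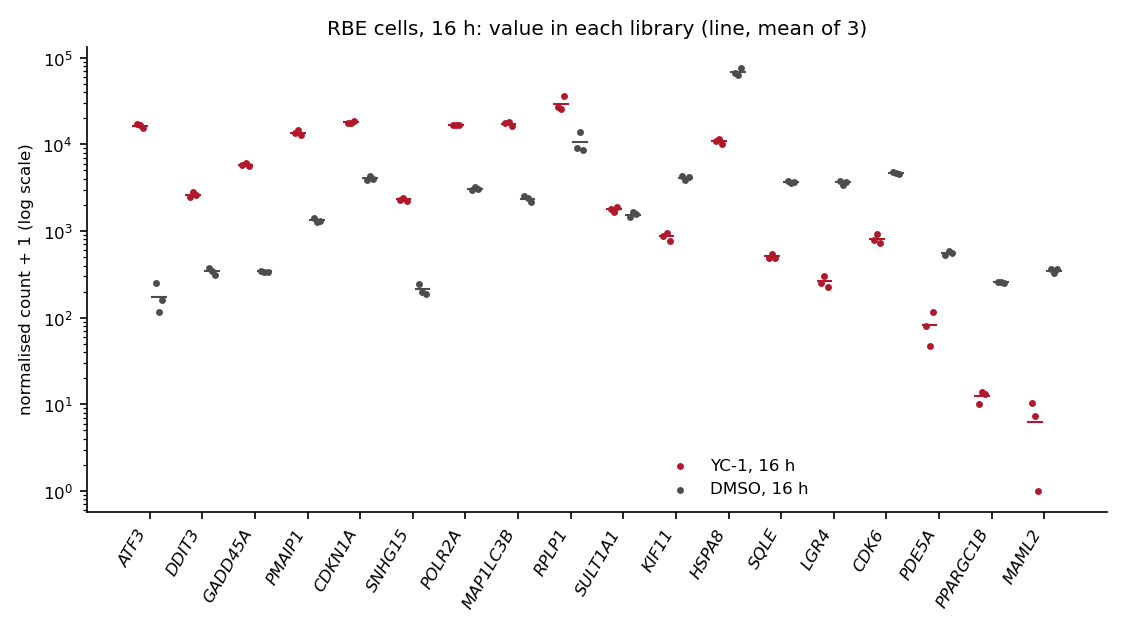
Normalised count plus 1 in each library (y axis, log scale) for 18 genes named in the text (x axis), YC-1 in red on the left and DMSO in grey on the right of each gene, with a line at the mean of 3. The groups are far apart for ATF3 (means 16505 and 175) and MAML2 (5.28 and 349) and close for SULT1A1 (1792 and 1551).

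By the sample titles, the same line was also treated for 6 h, with its own DMSO libraries. There 6822 genes (43.5%) were called in the same fit, 3322 higher (21.2%) and 3500 lower (22.3%), and the median absolute fold change was 0.69 at 16 h, against 0.34 at 6 h. The effect of YC-1 differed between the times for 6461 genes (41.2%), with 3083 (19.7%) above their 6 h effect and 3378 (21.6%) below it. Of these, 4517 had the same sign and a larger change at 16 h, 236 the same sign and a smaller one, and 1708 opposite signs, 237 of them called in opposite directions at the 2 times. Of the 100 highest genes at 16 h, 97 were also called higher at 6 h, and of the 100 lowest, 95 were called lower. Examples of the greatest differences with the sign of the difference positive were KRBA2, MYH3, the embryonic myosin heavy chain, and AOC3, an amine oxidase. AOC3 changed by 4.42 at 16 h and by 1.24 at 6 h. With a negative difference they were DKK1 (-3.32 at 16 h and 0.051 at 6 h), the pseudogene ZBTB45P1 and the scaffold gene TANC2 (-3.82 and -1.03).

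In SNU1079, the other IDH1-mutant line, 9062 of the same genes (57.8%) were called at 16 h in a fit of all 24 libraries, 4732 higher (30.2%) and 4330 lower (27.6%). The effect in RBE differed from that in SNU1079 for 2510 genes (16%), above it for 1109 (7.07%) and below it for 1401 (8.94%). YC-1 replicate 2 and DMSO replicate 1 stood apart in that line, the first of them with a mitochondrial share of 3.38% where the other YC-1 libraries had 18.1% and 22.1%. Leaving out both, an alternative that was added once the data had been seen, gave 2713. PDE4D, a phosphodiesterase of cyclic AMP, changed by -1.19 in RBE, against -5.30 in SNU1079. EGR1, an early growth response factor, rose by 4.09 in RBE, against 0.40 in SNU1079, and the epithelial factor GRHL3 rose by 2.42 in RBE, against -1.69 in SNU1079. In the other direction CCL20, a chemokine, rose by 1.31 in RBE, against 7.47 in SNU1079, while the GTPase-activating gene ARHGAP31 changed by -1.43 in RBE, against 4.13 in SNU1079. SV2A, a synaptic vesicle gene, changed by -0.33 in RBE, against 4.65 in SNU1079. For ATF3, at 6.63 in RBE and 5.76 in SNU1079, the difference did not pass (limma adjusted p = 0.0679).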

How the data were processed

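Poly(A) RNA of 24 libraries was sequenced after TruSeq Stranded mRNA preparation, per the labels' protocols. The authors deposited a normalised count per gene and library, a signal whose library sums differ and whose values are not whole. STAR, DESeq2 and hg38 are named, without versions, per the submitters' processing notes. The dose, the counting tool, its use of strand and the annotation are not given in the sources used. Without a strand setting, overlapping and antisense genes are uncertain. Whole reads could not be recovered (47.5% to 66.9% of low values per library within 0.1 of a whole multiple of the step), so depth is unknown and no count test was run.

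From these values log2(normalised count + 1) was fitted with limma 3.58.1 (R 4.3.3) as 4 group means over the 12 RBE libraries, with an intensity trend and 8 residual degrees of freedom. P-values were two-sided, with Benjamini-Hochberg adjustment over 15675 genes. Differences between lines came from 24 libraries (16 residual degrees of freedom). The p-values measure the spread between libraries that the design text calls biological replicates. Percentages and permutation tests used Python 3.11.15, pandas 2.3.3 and scipy 1.17.1, and plots matplotlib 3.10.9. Blank symbols (17120 rows) were filled from a table of gene names, and 252 more from GENCODE 29. That release also gave span, exons and biotype. All value columns were matched to samples.

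The members, lists and tests were chosen with earlier results of these data known, and 16 list entries found no row. Named were the 15 highest and 15 lowest called genes whose higher group averaged at least 100 and did not overlap the other, the 10 genes with most signal, up to 3 genes per list and direction with a mean of at least 50, the greatest differences between times and lines, and preset genes of interest. Others (CHAC1, ASNS, LGR5 and the members of small counts) were named after their values were seen. On simulated data the fit for RBE at 16 h found 68.1% of 94 genes changed by 1 and 92.5% of 106 changed by 2 on the log2 scale, with 6.36% of 173 calls false. Only these genes of 15675 were changed there, with noise drawn from the fitted spread. In the real libraries 71.6% of genes were called, so the recovery and the share of false calls may differ. Alternatives covered scaling, pseudocount, filters, moderation, libraries fitted, pooled times, a replicate block and leaving out each library. Promoters are RefSeq sequences of GRCh38.p14, of which the 250 bases before each start were searched.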

Additional observations from a re-analysis of the deposited data

Results flagged for a closer look

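With times taken from the titles, the response of RBE to YC-1 differed between 16 h and 6 h, by an interaction term in limma, for 6461 genes. The greatest positive differences of log2 fold change, 16 h minus 6 h, were 3.23 for KRBA2, 3.21 for MYH3 and 3.17 for AOC3. KRBA2 changed by 3.19 at 16 h and by -0.045 at 6 h, where it did not pass. The greatest negative differences were -3.37 for DKK1, -3.17 for ZBTB45P1 and -2.79 for TANC2. DKK1 did not pass at 6 h (limma adjusted p = 0.898). The difference for ZBTB45P1 was lost when any 1 of the 3 DMSO libraries at 16 h was left out.

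The response at 16 h differed between RBE and SNU1079 for 2510 genes by the same kind of term. The RBE effect exceeded the SNU1079 effect by 4.11 for PDE4D, 4.11 for GRHL3 and 3.69 for EGR1. Differences of the other sign were -6.16 for CCL20, -5.56 for ARHGAP31 and -4.97 for SV2A. What underlies these differences was not tested.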

How the results depend on the processing

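Requiring a log2 fold change above 1 within the test left 2461 genes, 922 higher and 1539 lower. Equal sums gave 3738 higher genes, and pooling both times gave 3065 genes changed by at least 1 either way. Leaving out 1 library gave 10529 to 10745 calls, 5380 to 5501 higher and 5125 to 5317 lower, 4883 to 5103 genes changed by at least 1, 5695 to 6175 differences between times, 1804 to 2703 differences between lines (2713 without both SNU1079 libraries that stood apart), and a difference in mitochondrial share of 7.85 to 8.68 percentage points. The fit of all 24 libraries called 9244 genes, and that of the 6 libraries alone 11156. With a replicate block 11118 genes were called, 5677 higher and 5441 lower. Same-numbered libraries of the 2 groups had correlations of deviations of 0.123, -0.084 and 0.0057. They did not each correlate best with their own number, and the main fit did not pair the samples. Correlations this small, from 3 libraries a group, cannot exclude a batch shared by number.

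Of 221 gene results, 137 stayed called or not called under all alternatives run, and kept direction where called. A change of sign in a result called in neither fit was not counted. Of 4380 values, 213 kept their sign and lost the call, and 7 kept their sign and gained it. A further 14 changed sign with a call in the main fit, in the alternative or in both. At equal sums those were EEF1A1 (-0.24), IDH1 (-0.29), SULT1A1 (-0.12), AURKB (-0.068), RAD54L (-0.031), FDPS (-0.022), FADS1 (-0.16), MAML1 (-0.22) and AJUBA (-0.048). With sums equal outside the mitochondrial genome they were IDH1 (-0.15) and FADS1 (-0.026). With times pooled they were AHR (0.070), SV2A (0.039) and TCF7L1 (-0.013). Of 48 list medians, 10 changed sign at equal sums. Equal sums lower every fold change by construction, and the other causes were not tested.

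Values are relative to the rest of a library, so absolute RNA amounts are unknown, as are depth and the dose. The sources conflict on the times, and under the separate time label treatment and time could not be told apart. Results rest on 3 libraries a group from 1 line.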
